A study of Mus musculus with 104 samples.

Results

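Collagen genes were followed over the day in RNA of satellite cells, the stem cells of skeletal muscle, from aged and adult mice that were calorie restricted (CR) or fed a control diet. A gene was counted as a collagen where its single annotated symbol had the form Col, a number, a and a number. This gave 42 of the 17097 genes with a single symbol. Each was represented by its brightest probe set, the group of array probes designed for the same transcript. They fall into 11 fibrillar collagens, 8 basement membrane collagens and 23 others. Probe sets with a mean below log2 4.50, the 40th percentile of all probe sets, were left out of the tests, which kept 36 collagens (9 fibrillar, 8 basement membrane and 19 others) among 11853 genes.

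All mice carried the Per1-Venus BAC transgene, a reporter of the clock gene Per1, on a C57B6/J background. The 4 arms were aged CR (26 arrays), adult CR (32), aged control (24) and adult control (22). CR mice received 30% less food for 25 weeks, after 3 weeks of adaptation in which food was lowered by 10% a week, and control mice ate without limit. Aged mice were 55 to 69 weeks old and adult mice 19 to 29 weeks old at the start of adaptation. Cells were collected at 0, 4, 8, 12, 16 and 20 h, given as ZT in the design text, a time scale that by convention counts from lights on. A group of arm and time held 4 to 6 arrays, except adult control at 20 h with 1 array. The 22 arrays titled adult control are all tagged 83 to 97 weeks old, which is the tag of aged mice, so that their age rests on the titles, while titles and tags match in adult CR (47 to 57 weeks). How the cells were sorted is not stated in the labels.

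Collagens are secreted proteins in which chains wind around each other into a long helix. Fibrillar collagens such as types I, III and V assemble into the fibres of connective tissue, in which type V is a minor chain that controls fibre diameter. Type IV forms the network of basement membranes, including the basal lamina that encloses each muscle fibre and the satellite cell lying on it, and type VI forms beaded filaments beside it. Type V collagen is known as a niche ligand that satellite cells make themselves, and it helps to keep them quiescent.

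Values are RMA values on a log2 scale. A level is the mean over the day from a fitted 24 h cosine curve, and the amplitude is the distance from that mean to the peak. Levels of different probe sets cannot be compared with each other, since probes differ in brightness. Among the 42 probe sets, those of Col4a1 (mean 10.46), Col3a1 (10.24), Col6a1 (10.15), Col15a1 (9.67), Col1a1 (9.31), Col5a1 (9.21), Col5a3 (9.14), Col5a2 (8.93) and Col4a2 (8.92) were each brighter than at least 95% of all probe sets. The probe sets of Col24a1, Col11a1, Col22a1, Col9a2, Col9a1 and Col6a5 did not pass the limit, and Col13a1 (4.58) was the dimmest that did. Just inside the limit lay Col13a1 and Col11a2 (4.61), and just outside it Col22a1 (4.47) and Col24a1 (4.44).

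The labelled cell type was checked by its markers. All 16 listed muscle stem cell markers passed the limit, among them the transcription factors Pax7 at 9.84 and Myf5 at 9.44. Markers of other cells were present too, and their level moved with some of the comparisons. The mean of the 7 Schwann cell markers that passed was 9.15 ± 0.28 in aged CR against 8.86 ± 0.35 in adult CR, and 9.31 ± 0.33 in aged control against 8.95 ± 0.40 in adult control (SD over the arrays of an arm). The mean of the 5 pericyte and smooth muscle markers was 9.45 ± 0.27 in aged CR against 9.16 ± 0.37 in adult CR, and 9.62 ± 0.39 in aged control against 9.35 ± 0.36 in adult control. That of the 8 fibroadipogenic progenitor markers, cells that make much of the muscle's collagen, was 8.31 ± 0.15, 8.21 ± 0.25, 8.39 ± 0.18 and 8.39 ± 0.19 in aged CR, adult CR, aged control and adult control. In such bulk samples fewer cells of a type and less RNA per cell cannot be told apart. The titles call the arrays biological replicates, and the p-values measure the spread between these arrays.

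Promoter windows are shown for the 3 collagens whose brightest probe set was called rhythmic in all 4 arms. For Col4a1 a second probe set, nearly as bright, was called in no arm. Each window runs from 250 bases before to 50 after the gene's start in RefSeq's GRCm38.p6 table, read 5′ to 3′ on the gene's strand. Capitals mark CCAAT boxes and GC boxes (GGGCGG), on both strands, in the Col5a1 window (chr2:27886175-27886474, plus strand) and the Col5a3 window (chr9:20815018-20815317, minus strand). In the Col4a1 window (chr8:11312777-11313076, minus strand) capitals mark the 78 bases that it shares with the window of Col4a2, the gene that starts beside it and runs the other way.
Col5a1: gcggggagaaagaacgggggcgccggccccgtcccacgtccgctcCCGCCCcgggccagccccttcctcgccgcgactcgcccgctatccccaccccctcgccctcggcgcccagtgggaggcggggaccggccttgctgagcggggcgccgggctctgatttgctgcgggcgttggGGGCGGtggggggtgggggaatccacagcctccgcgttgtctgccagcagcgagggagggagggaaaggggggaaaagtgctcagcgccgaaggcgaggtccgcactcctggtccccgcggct
Col5a3: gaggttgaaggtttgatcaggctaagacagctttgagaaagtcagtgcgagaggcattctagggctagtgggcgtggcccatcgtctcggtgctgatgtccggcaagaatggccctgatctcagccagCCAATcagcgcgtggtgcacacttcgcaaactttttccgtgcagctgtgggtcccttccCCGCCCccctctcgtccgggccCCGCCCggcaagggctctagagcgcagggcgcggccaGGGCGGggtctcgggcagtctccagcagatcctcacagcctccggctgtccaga
Col4a1: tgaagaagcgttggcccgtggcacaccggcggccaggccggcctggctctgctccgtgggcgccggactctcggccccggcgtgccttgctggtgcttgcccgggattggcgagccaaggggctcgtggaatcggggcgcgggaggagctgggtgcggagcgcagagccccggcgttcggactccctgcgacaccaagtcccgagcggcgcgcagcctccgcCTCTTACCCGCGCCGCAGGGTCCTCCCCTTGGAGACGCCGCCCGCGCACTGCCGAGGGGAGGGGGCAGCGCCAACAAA

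The 3 windows were rich in G and C, with 75.0% in Col5a1, 63.3% in Col5a3 and 74.0% in Col4a1, against a median of 52.7% over all promoter windows. Of the motifs bound by clock proteins, the E-box CACGTG was found in none of 36 windows of 33 collagen genes, where 7.15% of all 32851 windows hold it. The D-box TTATGTAA was likewise in none (0.938% of all windows), the E-box variant CACGTT in the Col4a4 window alone (4.68%), and the ROR half-site AGGTCA in 8 of 36 (16.3%). All were searched on both strands. The CCAAT box was in 13 of the 36 windows (37.4% of all) and the GC box in 22 (35.7% of all). Col1a1, Col12a1, Col14a1, Col22a1, Col26a1 and Col9a3 are among the 9 collagens without an entry. These are counts of letters in a short window and say nothing of sites elsewhere.

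Rhythms were tested in each arm with limma's moderated F test of the cosine and sine terms, adjusted by Benjamini-Hochberg over the 11853 genes at 5%. In aged CR 8 of the 36 collagens were rhythmic (22.2%), against 16.5% of all genes tested. Adult CR also had 8 (22.2%, against 22.4% of all genes), aged control 5 (13.9%, against 10.8%) and adult control 4 (11.1%, against 10.6%). The share of rhythmic collagens was thus near that of all genes. In any arm 12 of the 36 were rhythmic, against 38.2% of all genes. In all 4 arms 3 of the 36 were, Col5a1, Col5a3 and Col4a1 (by its brightest probe set only), against 1.83% of all genes. By class, the fibrillar collagens held 4 of 9 called genes in aged CR and 4 of 9 in adult CR, and 2 of 9 in each control arm. The basement membrane collagens held 1, 1, 2 and 1 of 8 in aged CR, adult CR, aged control and adult control, and the others 3, 3, 1 and 1 of 19.

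Col5a1 encodes the type V chain found in nearly all type V molecules, and its level followed the time of day in every arm. In aged CR the 4 arrays at 20 h read 9.64, 9.68, 9.61 and 9.49, against 8.92, 8.34, 8.67 and 9.01 at 8 h, the lowest time. In adult CR the 5 arrays at 20 h read 9.70, 9.90, 9.59, 9.81 and 9.66, against 8.68, 9.15, 8.47, 8.94, 8.99 and 8.61 at 12 h. No array at the high time fell into the range of the low time in either CR arm. The high and low times, here and below, have the highest and lowest mean in these same arrays, among groups of more than 1 array. Picking them so favours a lack of overlap, which is therefore no test of a rhythm. In aged control the arrays at 0 h read 9.41, 9.55, 9.81 and 9.53, and those at 16 h 8.89, 9.24, 8.97 and 8.79. In adult control the arrays at 0 h read 9.46, 9.89, 9.55 and 9.76, and those at 12 h 8.68, 8.53, 8.81 and 8.91. Here too the high and the low time did not overlap. The fitted amplitude of Col5a1 was 0.46 ± 0.056 in aged CR, 0.46 ± 0.051 in adult CR, 0.31 ± 0.058 for aged control and 0.45 ± 0.058 for adult control (SE), a fitted swing between trough and peak of 1.89-, 1.88-, 1.54- and 1.87-fold. Limma's adjusted p was 7.3e-09, 2.0e-10, 0.00053 and 6.1e-08. The fitted peak lay at 21.1 ± 0.47 h in aged CR, 22.3 ± 0.42 h in adult CR, 23.9 ± 0.72 h in aged control and 1.13 ± 0.57 h in adult control.

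Col5a3 encodes a further type V chain with a narrower range of tissues. In aged CR its arrays at 0 h read 9.61, 9.27, 9.50, 9.54 and 9.39, against 8.64, 8.47, 8.90, 8.54 and 8.25 at 12 h. In adult CR those at 0 h read 9.62, 9.79, 9.75, 9.89 and 9.50, against 8.75, 8.56, 8.30, 8.52, 8.54 and 8.55 at 12 h. In aged control the arrays at 0 h read 9.82, 9.65, 9.77 and 9.64 and those at 12 h 8.65, 8.99, 8.76 and 8.94. All 4 arms had their highest mean at 0 h and their lowest at 12 h, and these times did not overlap in any arm. In adult control the arrays at 0 h read 9.82, 10.04, 9.69 and 9.86 and those at 12 h 8.75, 9.08, 8.84 and 9.26. The amplitude of Col5a3 in aged CR, adult CR, aged control and adult control was 0.49 ± 0.060, 0.53 ± 0.056, 0.44 ± 0.065 and 0.45 ± 0.065 (SE; limma's adjusted p 1.2e-08, 3.0e-11, 5.9e-06 and 1.6e-06), and the swing 1.96-, 2.07-, 1.83- and 1.87-fold. Peaks were fitted at 23.0 ± 0.50 h, 23.3 ± 0.41 h, 1.97 ± 0.57 h and 0.73 ± 0.63 h. At 20 h in aged control replicate 2 read 8.24, while the other 3 arrays read 9.33 to 9.56. The same array was also the lowest of its group for Col5a1 (9.13) and Col3a1 (9.50).

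**Figure D1:**
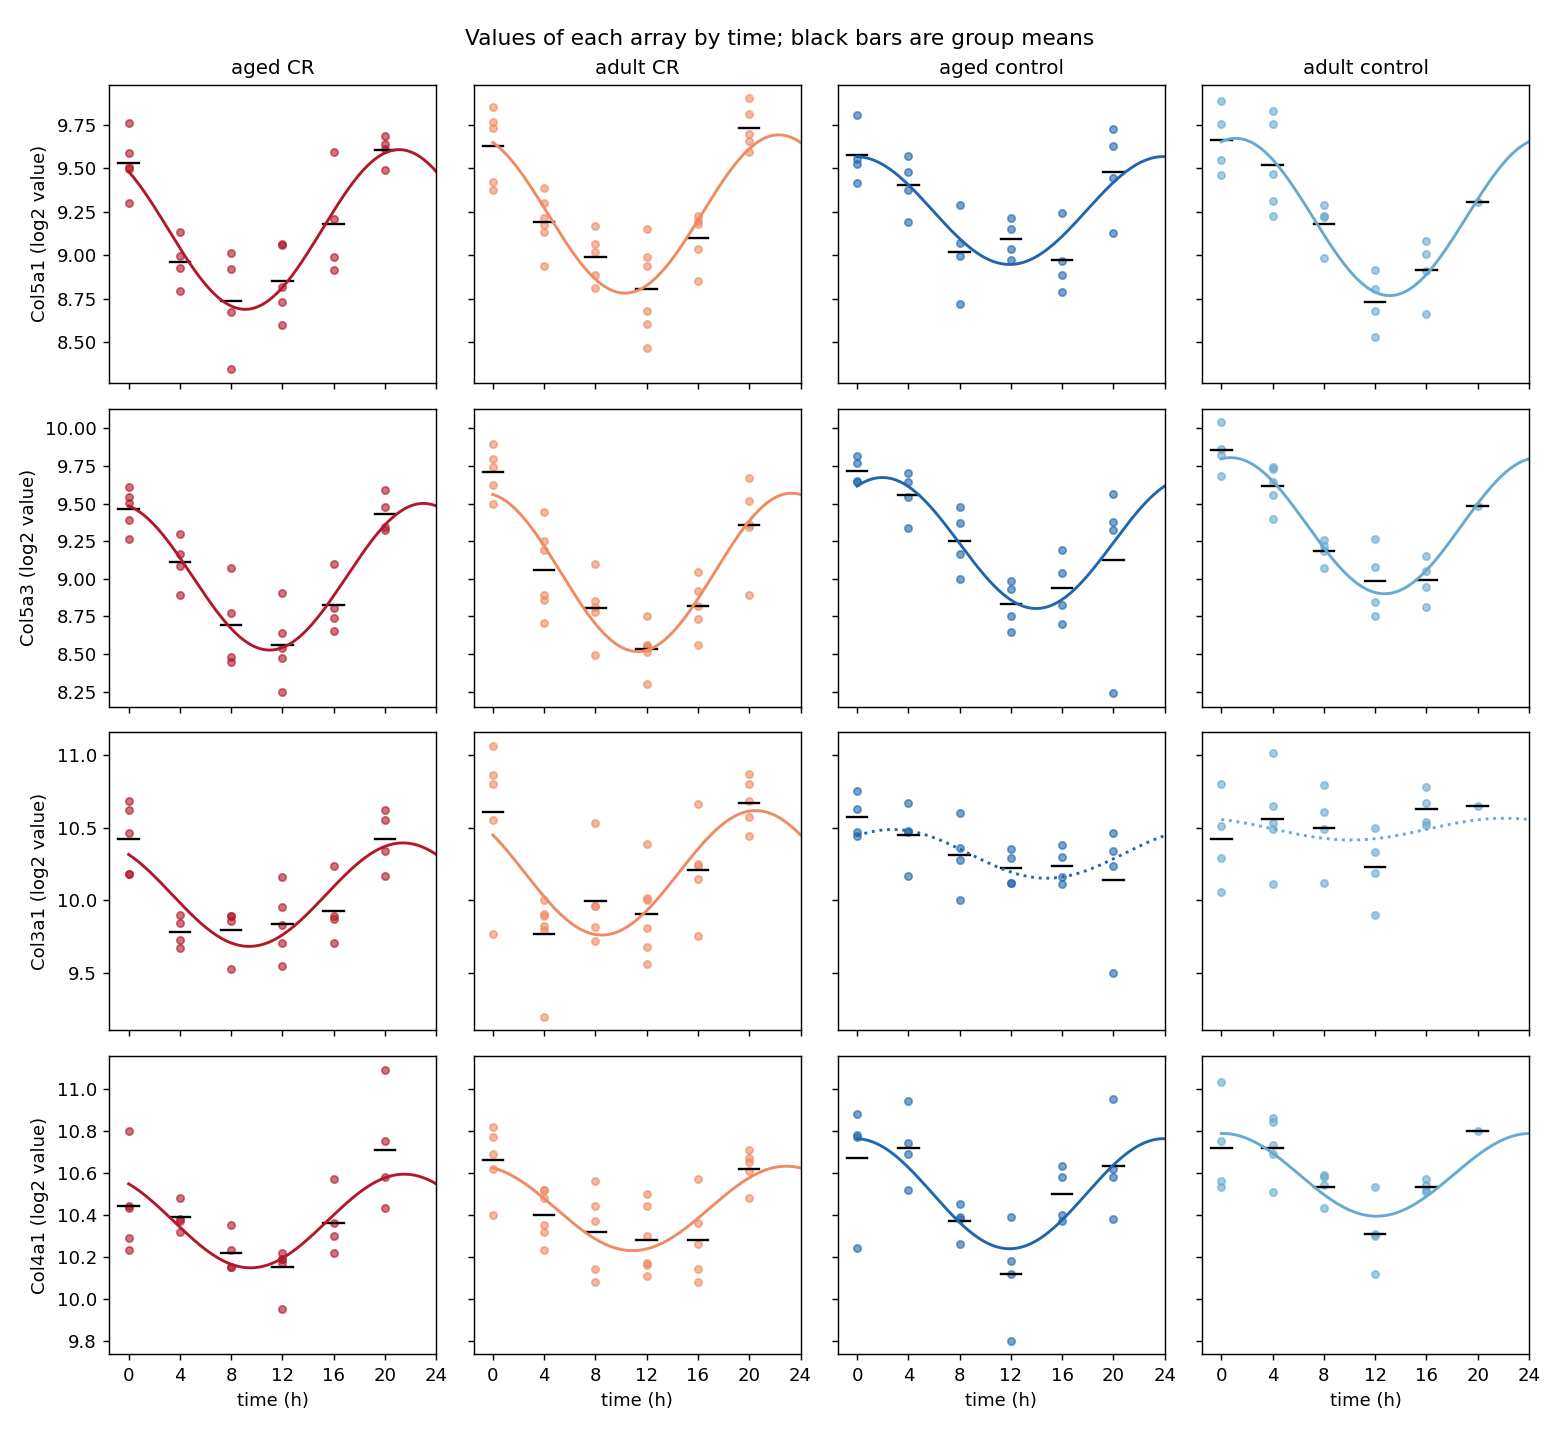
Log2 values of Col5a1, Col5a3, Col3a1 and Col4a1 (rows) against time in h in aged CR, adult CR, aged control and adult control (columns). Each point is an array, black bars are group means, and lines are the fitted 24 h curves, solid where called rhythmic and dotted where not. Col5a1, Col5a3 and Col4a1 have solid curves in all 4 arms and Col3a1 in the CR arms, and adult control has 1 array at 20 h.

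The other probe sets of these genes can be read as a repeat on the same arrays. Here and below they come from a separate fit of all 28898 probe sets with a single gene, unfiltered. Their p-values were adjusted over that larger number, so they cannot be set directly beside those of the main fit. Col5a1 has 3 probe sets and Col5a3 has 2. The second Col5a1 probe set (mean 7.28) was rhythmic in all 4 arms with peaks at 21.4, 22.9, 0.94 and 0.78 h in aged CR, adult CR, aged control and adult control. The third (mean 8.503) passed in 3 arms and missed in aged control (limma's adjusted p 0.059, peak 1.68 h). The second Col5a3 probe set (mean 4.86) passed in all 4 arms, with amplitudes of 0.35, 0.42, 0.54 and 0.43.

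Col4a1 encodes the main chain of type IV collagen, the basement membrane network. Its mean was highest at 20 h in aged CR, 10.71 ± 0.28 (SD, n = 4), against 10.15 ± 0.11 at 12 h (n = 5). In aged control it was highest at 4 h, 10.72 ± 0.17, against 10.12 ± 0.24 at 12 h (n = 4 each). High and low times did not overlap in those arms, but they overlapped in adult CR (10.66 ± 0.16 at 0 h, n = 5, and 10.28 ± 0.16 at 12 h, n = 6) and in adult control (10.72 ± 0.23 at 0 h and 10.31 ± 0.17 at 12 h, n = 4 each). The amplitude was 0.22 ± 0.050, 0.20 ± 0.045, 0.26 ± 0.052 and 0.20 ± 0.054 in aged CR, adult CR, aged control and adult control, with limma's adjusted p of 0.0030, 0.0025, 0.0012 and 0.025. Its second probe set is nearly as bright (mean 10.27) and was called in no arm (adjusted p 0.16 to 0.50, amplitudes 0.066 to 0.13), so that the 2 probe sets of Col4a1 disagree. Col4a2, the partner chain whose window overlaps that of Col4a1, did not pass in any arm either. Its amplitude was 0.32 ± 0.096 in aged control (limma's adjusted p 0.050, just above the threshold) and 0.099 ± 0.089 in aged CR.

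Col3a1 (type III, a fibrillar collagen of soft tissue) and Col5a2 (a type V chain) are neighbouring genes on chromosome 1, and both were called rhythmic in the CR arms and in neither control arm. Col3a1 in aged CR read 10.46, 10.62, 10.18, 10.18 and 10.68 at 0 h and 9.90, 9.68, 9.73 and 9.84 at 4 h, with no overlap. In adult CR it read 10.44, 10.57, 10.87, 10.80 and 10.68 at 20 h and 9.91, 9.82, 9.80, 10.00, 9.20 and 9.90 at 4 h, again with no overlap. In aged control the arrays at the highest mean (10.57 at 0 h) and at the lowest (10.14 at 20 h) overlapped. In adult control those at 16 h (10.52 to 10.78) did not overlap those at 12 h (9.90 to 10.50), though no rhythm was called there. Col3a1 read 10.65 in the 1 adult control array at 20 h. Its amplitude was 0.36 ± 0.079 in aged CR and 0.43 ± 0.073 in adult CR (limma's adjusted p 0.0028 and 3.6e-05), against 0.17 ± 0.083 in aged control and 0.075 ± 0.094 in adult control (0.31 and 0.84). For Col5a2 the amplitude was 0.28 ± 0.069 in aged CR and 0.39 ± 0.062 in adult CR (0.0068 and 6.7e-06), against 0.16 ± 0.070 in aged control and 0.12 ± 0.083 in adult control (0.22 and 0.53). The test of the difference in rhythm between CR and control did not pass for Col3a1 (limma's adjusted p 0.21 in aged and 0.66 in adult cells) or for Col5a2 (0.44 and 0.69), so that the rhythms are not shown to differ between diets. The dim second probe set of Col3a1 (mean 3.97) gave the same calls, at peaks of 21.5 h in aged CR and 20.3 h in adult CR. That of Col5a2 (4.53) passed in no arm.

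The remaining rhythmic calls were scattered. Col6a1, a type VI chain, was called in aged CR (amplitude 0.29 ± 0.060, peak 20.3 h), and its partner chain Col6a2 in aged control (0.29 ± 0.084, peak 4.62 h). Col26a1 was called in aged CR and adult CR with the largest amplitudes among the called collagens of each, 0.51 ± 0.13 and 0.58 ± 0.12, peaking at 1.22 and 3.48 h. Col8a2, a network-forming type VIII chain, peaked by contrast near 10 h in adult CR (amplitude 0.31 ± 0.087) and adult control (0.44 ± 0.11). Col4a4 was called in aged control only (0.49 ± 0.10, peak 12.3 h), Col25a1, a transmembrane collagen, in aged CR only (0.16 ± 0.050, 9.84 h), and Col10a1 in adult CR only (0.15 ± 0.046, 21.5 h). The probe sets of Col8a2 (mean 4.66), Col10a1 (4.65) and Col25a1 (5.02) are dim, near the limit of 4.50. A second, dimmer Col25a1 probe set (3.535) was not called in aged CR (amplitude 0.053, limma's adjusted p 0.34). Of the collagens called, 7 of 8 in aged CR, 6 of 8 in adult CR, 3 of 5 in aged control and 3 of 4 in adult control peaked between 18 and 2 h, against 41.5%, 36.4%, 50.1% and 34.5% of all genes called in those arms.

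**Figure D2:**
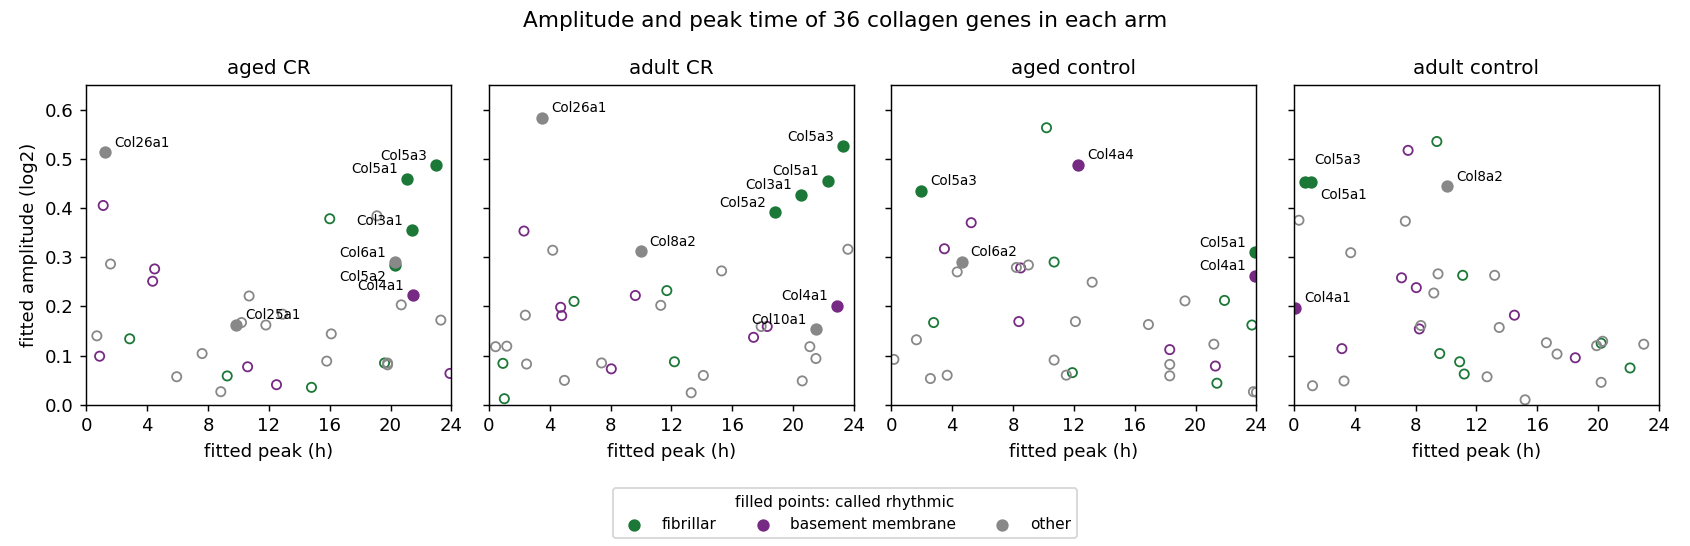
Fitted amplitude on the log2 scale against fitted peak time in h for the 36 collagens in each arm, coloured by class. Filled points were called rhythmic and are named. Col5a1, Col5a3 and Col4a1 are filled in all 4 panels, between 20 and 2 h.

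Col1a1, the main chain of type I collagen, was the collagen with the widest spread between arrays of the same group, with a pooled SD of 0.58 against 0.17 for Col4a1. It was called in no arm. Its fitted amplitude was large in the control arms, 0.56 ± 0.18 in aged control and 0.54 ± 0.21 in adult control, and missed the threshold there (limma's adjusted p 0.068 and 0.16). Its partner Col1a2, measured by a probe set of mean 5.20, had amplitudes of 0.035 to 0.10. Col15a1, a collagen of the outer basement membrane zone of muscle, had an amplitude of 0.41 ± 0.13, 0.35 ± 0.12, 0.37 ± 0.14 and 0.52 ± 0.16 in aged CR, adult CR, aged control and adult control, and passed in none (0.057, 0.062, 0.14 and 0.065). Col18a1 (amplitudes 0.11 to 0.28), whose end fragment is endostatin, and Col6a3 (0.14 to 0.28) did not pass either.

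Differences in rhythm between arms were tested by limma's F test on the differences of cosine and sine. None of the 36 collagens passed in any of the 4 comparisons, where 0.00844% of all genes passed for aged over adult in CR, 0% for aged over adult on the control diet, 0.388% for CR over control in aged cells and 0.0253% for CR over control in adult cells. At an unadjusted p under 0.05 the counts were 4, 2, 10 and 7 of 36 (11.1%, 5.56%, 27.8% and 19.4%), against 9.86%, 4.04%, 13.8% and 6.45% of all genes. The fitted peaks lay earlier in CR than in control for the 3 collagens rhythmic in every arm, Col4a1 by its brightest probe set only. Adult control had only 1 array at 20 h, which limits its fitted peaks. The peak shift, CR minus control, of Col5a1 was -2.76 ± 0.86 h in aged and -2.80 ± 0.71 h in adult cells (SE; limma's adjusted p of the rhythm difference 0.12 and 0.44). That of Col5a3 was -3.01 ± 0.76 and -1.45 ± 0.75 h (0.086 and 0.87), and that of Col4a1 -2.32 ± 1.2 and -1.19 ± 1.4 h (0.50 and 0.97). The clock gene Arntl, measured beside them, shifted by -3.46 ± 0.54 h in aged cells, where the rhythm difference passed (0.00069), and by -3.13 ± 0.66 h in adult cells, where it did not (0.083). The shift between ages, aged minus adult, was -1.20 ± 0.63 h with CR and -1.24 ± 0.92 h on the control diet for Col5a1, and -0.33 ± 0.65 and 1.24 ± 0.84 h for Col5a3.

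Day means were then set against each other, each difference with limma's moderated test. With CR, 2 collagens were higher in aged than in adult cells, 2 of 36 against 1.48% of all genes higher, and none was lower (0.456% of all genes). Col27a1, a fibrillar collagen of cartilage, ranged over 6.38, 7.28 and 8.29 in aged CR (lowest, median, highest of 26 arrays) and over 5.82, 6.78 and 7.56 in adult CR (32 arrays). The arms overlapped widely. The difference was 0.51 ± 0.11 (SE; 1.43-fold, limma's adjusted p 0.0050), in the same direction at 5 of 6 times. Col18a1, a heparan sulfate proteoglycan of basement membranes, ranged over 7.33, 8.17 and 9.38 in aged CR and 6.73, 7.80 and 8.79 in adult CR, and differed by 0.39 ± 0.092 (1.31-fold, 0.010), in the same direction at 6 of 6 times. The second probe sets of both leaned the same way without passing, Col27a1 by 0.20 (0.12) and Col18a1 by 0.30 (0.10).

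On the control diet 1 collagen, Col16a1, was higher in the arrays titled aged, against 0.329% of all genes higher, and none was lower (0.0928%). Col16a1, an associate of fibrils and dermal fibres, ranged over 5.43, 6.26 and 7.06 in aged control and 5.30, 5.86 and 6.55 in adult control, a difference of 0.41 ± 0.090 (1.33-fold, limma's adjusted p 0.011). Col18a1 differed by 0.38 ± 0.10 here, close to its difference with CR, and missed the threshold (0.065). Col27a1 differed by 0.28 ± 0.13 (0.40). Col6a1 had a lower mean in aged control at 6 of 6 times, 10.05 against 10.28 in adult control, a difference of -0.23 ± 0.064 that did not pass (0.082). The Schwann cell and the pericyte and smooth muscle marker means, given above, were higher in aged cells on both diets. So were the means of Col27a1, Col18a1 and Col16a1, though Col16a1 only weakly with CR. There it differed by 0.12 ± 0.079 (SE; limma's adjusted p 0.50), in this direction at 4 of 6 times. With the Schwann cell mean as a covariate none of the 3 passed. The age difference was then 0.39 for Col27a1 (limma's adjusted p 0.089), 0.29 for Col18a1 (0.14) and 0.25 for Col16a1 (0.33). Given the pericyte mean instead, Col18a1 (0.31, 0.12) and Col16a1 (0.34, 0.12) did not pass, and Col27a1 did. Col16a1 did not pass with the muscle stem cell mean either (0.36, 0.085). Over the alternatives run, the adjusted p ranged over 0.0024 to 0.089 for Col27a1, 0.0043 to 0.14 for Col18a1 and 0.0015 to 0.33 for Col16a1. Whether RNA of Schwann cells or pericytes has a part in these differences was not tested.

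Col5a3 and Col3a1 were called lower in CR at both ages, though none of these calls was kept under every alternative and omission run. Col5a3 ranged over 8.25, 9.08 and 9.61 in aged CR and 8.24, 9.33 and 9.82 in aged control, and over 8.30, 8.89 and 9.89 in adult CR and 8.75, 9.26 and 10.04 in adult control. The day mean of Col5a3 was 9.01 in aged CR against 9.24 in aged control (difference -0.22 ± 0.063, limma's adjusted p 0.035). It was 9.04 in adult CR against 9.35 in adult control (-0.31 ± 0.063, 0.0032). Col3a1 had day means of 10.04 in aged CR against 10.32 in aged control (-0.28 ± 0.081, 0.040), and of 10.19 in adult CR against 10.49 in adult control (-0.30 ± 0.081, 0.039). Col16a1 was lower in aged CR than in aged control, 5.96 against 6.25 (-0.29 ± 0.085, 0.043, at 6 of 6 times), and in adult cells the means were 5.84 in both diets. In aged cells 3 of 36 collagens were thus lower in CR, against 1.09% of all genes lower, and none higher (1.21%). In adult cells 2 were lower, against 0.498% of all genes, and none higher (0.548%). Beside these differences, 1 of 5 pericyte markers was lower in aged CR than in aged control (median difference of the 5 -0.31), and none passed between adult CR and adult control (median -0.34), and 2 of 8 fibroadipogenic progenitor markers were lower in adult CR than in adult control (median of the 8 -0.18). Of the 12 progenitor markers 8 passed the limit, with Gsn at 10.86, Dpt at 10.77 and Dcn at 10.52, while Pdgfra (3.77), Dpp4 (4.41) and Lum (4.22) were below it. With the Schwann cell mean as a covariate the difference in aged cells was -0.28 for Col3a1 (limma's adjusted p 0.058), -0.19 for Col5a3 (0.11) and -0.22 for Col16a1 (0.16), none past the threshold. With the progenitor mean Col3a1 did not pass in adult cells (-0.30, limma's adjusted p 0.054). The part of these cells was not tested. The 2 age comparisons and the 2 diet comparisons share arms, so their results are not independent of each other.

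The diet effect was not shown to differ between ages for any collagen (0 of 36, and 0% of all genes, by limma's test of the interaction, with 2 of 36 at an unadjusted p under 0.05, against 7.66% of all genes). The interaction was 0.085 ± 0.089 for Col5a3 and 0.022 ± 0.11 for Col3a1. Several of these calls were weak. The aged diet calls were lost when arrays were left out in turn, for Col16a1 in 27, Col3a1 in 23 and Col5a3 in 13 of 92 omissions, and the adult call of Col3a1 in 12, whereas the adult call of Col5a3 was kept in all 92. The dim second probe set of Col5a3 (mean 4.86) gave -0.16 in aged and -0.085 in adult cells and did not pass (0.46 and 0.79), and with the mean of both Col5a3 probe sets the adult difference was -0.20 (0.11). The dim second probe set of Col3a1 (mean 3.97) gave -0.10 and -0.062 (0.46 and 0.75).

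**Figure D3:**
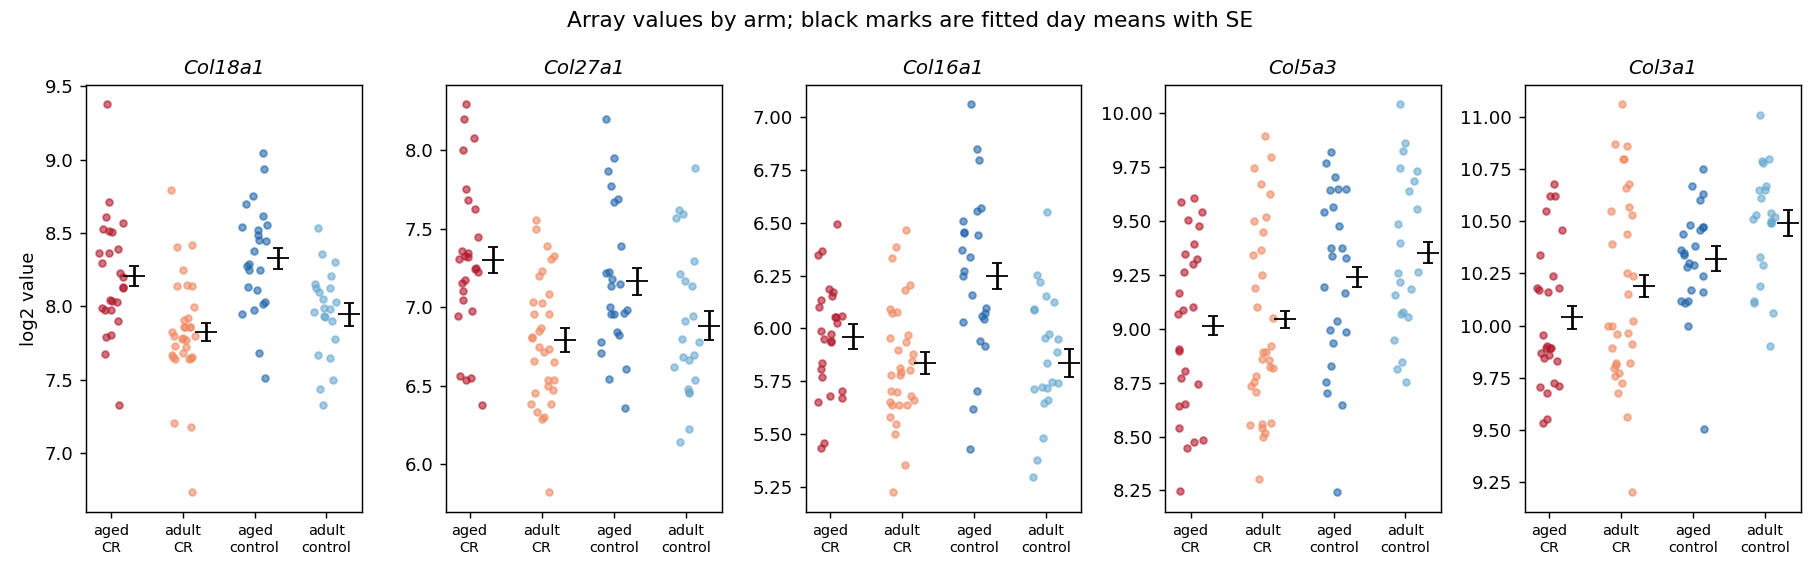
Log2 values of Col18a1, Col27a1, Col16a1, Col5a3 and Col3a1 in each array (points) of aged CR, adult CR, aged control and adult control, with the fitted day mean and its SE in black. Day means of Col18a1 are 8.21 and 7.82 in aged CR and adult CR, 8.33 and 7.95 in aged control and adult control, and the arrays of every pair of arms overlap.

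Most collagens did not pass in any comparison of levels. In aged over adult cells with CR, 15 of the 36 differences were above 0 and 21 below, with a median of -0.021 (median of all genes -0.00080), and on the control diet 19 were above and 17 below, with a median of 0.0064 (0.0089). For CR over control 15 were above and 21 below in aged cells (median -0.033, all genes -0.0016) and 16 above and 20 below in adult cells (-0.017, all genes 0.0076). By class the medians for CR over control were 0.030 in aged and -0.092 in adult cells for the fibrillar collagens, -0.083 and -0.066 for the basement membrane collagens, and -0.026 and 0.015 for the others. Among the abundant chains, Col1a1 differed by -0.39 ± 0.18 between aged CR and aged control (0.24), with a 95% interval of -0.74 to -0.048, and by -0.12 ± 0.17 between adult CR and adult control (0.84). Col4a1 differed by -0.13 ± 0.051 between aged CR and aged control (limma's adjusted p 0.17) and by -0.16 ± 0.051 between adult CR and adult control (0.096), and Col4a2 by -0.21 ± 0.094 (0.24) and -0.19 ± 0.093 (0.35). Col6a3 had the largest difference of CR over control in aged cells, -0.48 ± 0.15, and missed the threshold (0.069). Col5a1, the rhythmic type V chain, differed by -0.11 ± 0.057 (0.35) and 0.017 ± 0.057 (0.94), and Col5a2 by 0.11 ± 0.069 (0.43) and 0.15 ± 0.069 (0.29), without passing.

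**Figure D4:**
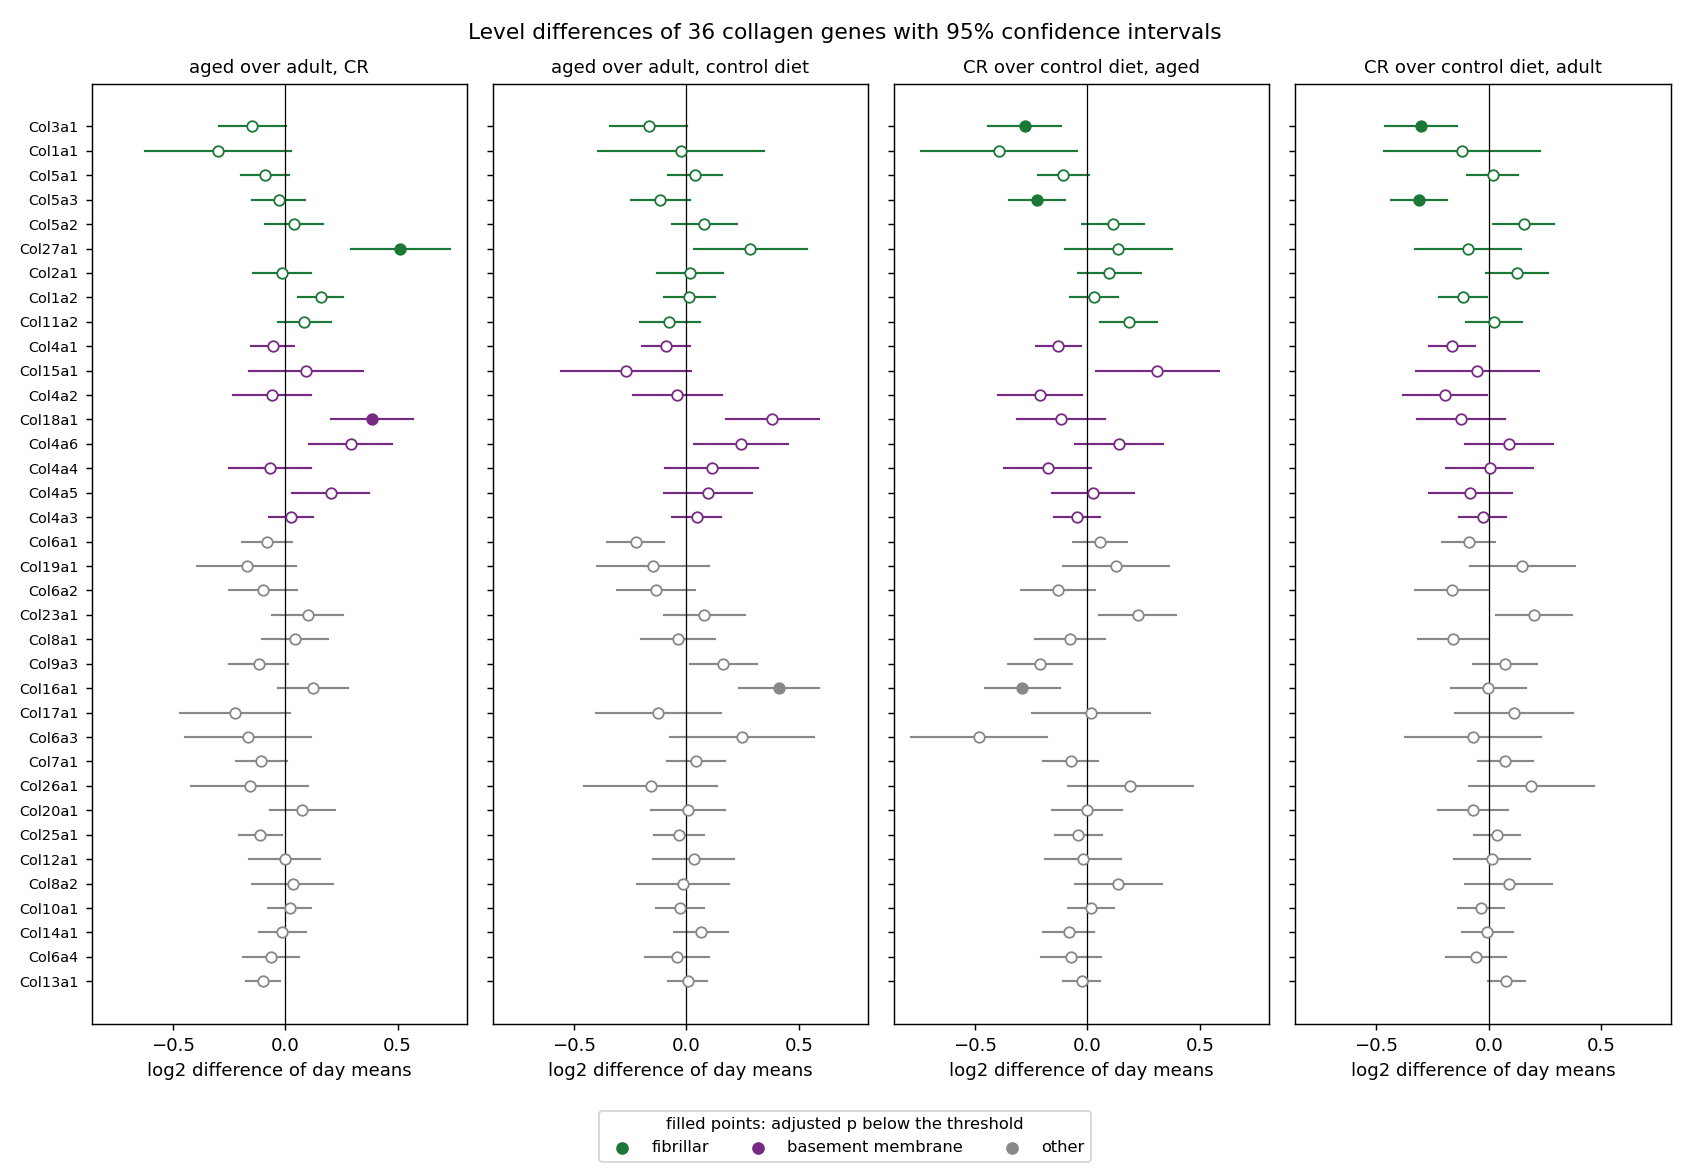
Differences of day means on the log2 scale (points) with 95% confidence intervals (lines) for the 36 collagens, by class, in 4 comparisons. Filled points passed limma's test adjusted over all genes: Col27a1 and Col18a1 for age with CR, Col16a1 for age on the control diet, Col3a1, Col5a3 and Col16a1 for CR in aged cells, and Col3a1 and Col5a3 for CR in adult cells.

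Chains of the same type or of neighbouring genes were also compared array by array, as deviations from the mean of their group of arm and time. This used the 103 arrays in groups of more than 1, with 9 relations in all and permutation tests of 100000 resamples, 2-sided, adjusted by Benjamini-Hochberg. All points share the technical variation of their array. Col4a1 and Col4a2 deviated together, with Pearson's r = 0.56 (permutation p 1e-05, the smallest that the resamples can give, adjusted 1.8e-05) and Spearman's rho = 0.57 (1e-05), and r was 0.47 to 0.66 within the arms and 0.56 without the 2 arrays farthest from the median. Col6a1 and Col6a2 gave r = 0.54 (permutation p 1e-05, adjusted 1.8e-05) and rho = 0.47 (1e-05), with 0.47 to 0.64 within arms and 0.50 without the 2 farthest arrays. For Col1a1 and Col1a2 r was 0.30 (permutation p 0.0018, adjusted 0.0020) and rho 0.29 (0.0031), 0.21 to 0.42 within arms and 0.30 without 2 arrays. Col3a1 and Col5a2 gave r = 0.30 (permutation p 0.0016, adjusted 0.0020) and rho = 0.28 (0.0051), but r within arms was 0.069 to 0.76, with the highest value in adult control, and 0.32 without 2 arrays. Col5a1 and Col5a3 gave r = 0.33 (permutation p 0.00076, adjusted 0.0011) and rho = 0.30 (0.0025), with -0.15 to 0.63 within arms and 0.34 without 2 arrays, so that the relation did not hold in every arm. Col5a1 and Col5a2 showed none that passed (r = 0.099, permutation p 0.32, adjusted 0.32, rho = 0.11, p 0.28, and 0.10 without 2 arrays, with -0.23 to 0.39 within arms).

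The spread of Col1a1 moved with tendon cell markers. Its deviations and those of the mean of 6 tenocyte markers gave r = 0.65 (permutation p 1e-05, adjusted 1.8e-05) and rho = 0.59 (1e-05), and 0.61 without the 2 farthest arrays. Within arms r was 0.37 for aged CR, 0.85 for adult CR, 0.20 for aged control and 0.75 for adult control. The defining tenocyte genes were dim or near the limit, with Scx at 5.77, Tnmd at 4.61 and Mkx at 3.80, while Chodl (10.38) was bright. Fmod, another of the 6, is also on the list of matrix partners. The tenocyte mean was 6.63 ± 0.28, 6.86 ± 0.44, 6.62 ± 0.34 and 6.78 ± 0.49 in aged CR, adult CR, aged control and adult control (SD). Col15a1 and Col6a1 were set against the mean of the muscle stem cell markers, with r = 0.54 (permutation p 1e-05, adjusted 1.8e-05, rho = 0.54, p 1e-05) and r = 0.53 (permutation p 1e-05, adjusted 1.8e-05, rho = 0.49, p 1e-05), or 0.60 and 0.42 without 2 arrays. In aged control alone these were 0.034 and 0.055, against 0.53 to 0.75 in the other arms. The part of tendon cells or of stem cell number in these relations was not tested.

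**Figure D5:**
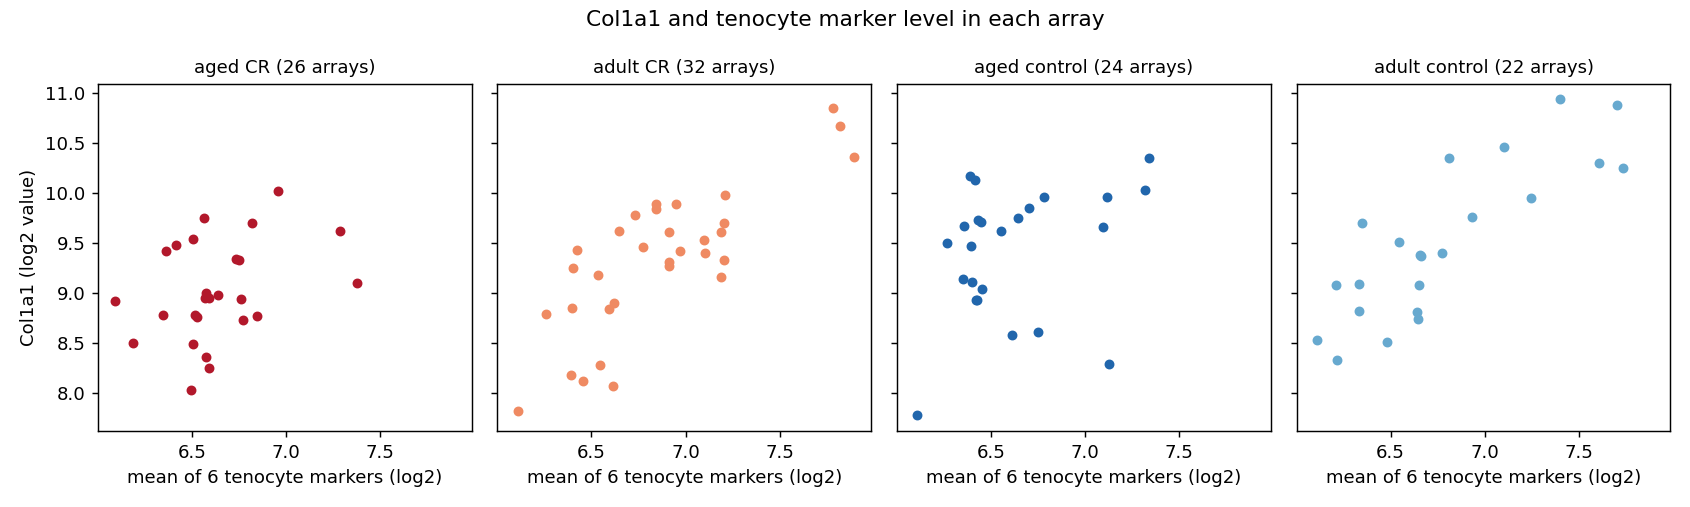
Log2 value of Col1a1 against the mean log2 value of 6 tenocyte markers in each array, in aged CR, adult CR, aged control and adult control. Pearson's r of the deviations from group means is 0.37, 0.85, 0.20 and 0.75 in these arms.

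Genes that make, modify, break down and bind collagen were read beside the chains. Of 33 listed genes of collagen biosynthesis and crosslinking 24 were tested, and 7, 8, 3 and 8 of them were rhythmic in aged CR, adult CR, aged control and adult control (29.2%, 33.3%, 12.5% and 33.3%, against 16.5%, 22.4%, 10.8% and 10.6% of all genes). Creb3l1, a transcription factor that drives collagen genes in osteoblasts, was rhythmic in all 4 arms, peaking at 19.5 ± 0.71 h in aged CR, 21.9 ± 0.85 h in adult CR, 0.20 ± 0.53 h in aged control and 0.82 ± 0.88 h in adult control. Its rhythm differed between CR and control in aged cells (limma's adjusted p 0.011), where its amplitude was 0.37 ± 0.073 in aged CR and 0.53 ± 0.074 in aged control. Loxl1, an oxidase that crosslinks collagen and elastin, was also rhythmic in all 4 arms, at 19.5, 21.4, 22.8 and 23.3 h. Serpinh1, the collagen chaperone, peaked at 19.2 h in aged CR and 22.3 h in adult CR, and was not called in the control arms. Its rhythm was not called different between diets at either age. Other calls peaked elsewhere, Plod1 (lysyl hydroxylase) at 11 h in aged CR, and P3h2 at 6.16 h and P4ha2 at 8.38 h in adult CR. Of the list's calls in these 4 arms, 5 of 7, 4 of 8, 3 of 3 and 4 of 8 peaked between 18 and 2 h. Among all genes called the shares were 41.5%, 36.4%, 50.1% and 34.5%. Plod1 was also the list's 1 level call, 1.31-fold lower in aged CR than in aged control (-0.39 ± 0.11, limma's adjusted p 0.032). This was 1 of 24 (4.17%), against 1.09% of all genes lower there.

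Of 16 listed breakdown genes 10 were tested, with 4, 2, 4 and 5 rhythmic in these arms (40%, 20%, 40% and 50%, against the same shares of all genes, 16.5%, 22.4%, 10.8% and 10.6%). Timp3, a matrix-bound inhibitor of metalloproteinases, was rhythmic in all 4 arms and peaked at 10.7, 10.6, 11.3 and 10.5 h in aged CR, adult CR, aged control and adult control. These peaks lie about opposite those of Col5a1 and Col5a3. Mmp2, a gelatinase, peaked at 20 h in aged CR, 0.87 h in aged control and 23.9 h in adult control. Timp3 was higher in aged CR than in adult CR (0.28 ± 0.062, limma's adjusted p 0.0051), and Timp2 lower in adult CR than in adult control (-0.18 ± 0.043, 0.019). Of 13 listed collagen receptors 8 were tested, with 2, 1, 0 and 1 rhythmic (25%, 12.5%, 0% and 12.5%, against 16.5%, 22.4%, 10.8% and 10.6% of all genes) and none called in level. Of all genes 0.422% to 2.29% were called in the age and diet comparisons of level. The rhythmic receptors included Antxr2 in aged CR and adult control, and Ddr2, a receptor kinase for fibrillar collagen, in adult CR (peak 2.70 h).

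Of 22 listed matrix partners 17 were tested, and 4, 11, 1 and 3 were rhythmic in aged CR, adult CR, aged control and adult control (23.5%, 64.7%, 5.88% and 17.6%, against 16.5%, 22.4%, 10.8% and 10.6% of all genes). Hspg2 (perlecan) peaked at 21.5 h in aged CR, 20.8 h in adult CR and 23.9 h in aged control. Lamc1, a laminin chain, peaked at 21.5 and 21.4 h in aged CR and adult CR, times close to those of Col4a1 there. Lamb1, another laminin chain, peaked far from them, at 12.1 h in adult CR and 11.5 h in adult control. Thbs2 and Postn peaked at 5.11 and 6.5 h in adult CR. Of the partners called, 3 of 4 in aged CR and 4 of 11 in adult CR peaked between 18 and 2 h. Among all genes called the shares were 41.5% and 36.4%. Ccn2, a growth factor-like matrix protein, peaked at 7.31, 7.41 and 7.86 h in aged CR, adult CR and adult control. Sparc, a collagen-binding protein, was lower in CR at both ages (-0.24 ± 0.047 between aged CR and aged control, limma's adjusted p 0.00097, and -0.17 ± 0.047 between adult CR and adult control, 0.041), as was Nid1 (nidogen, which links laminin to type IV collagen; -0.41 ± 0.10, 0.012, and -0.37 ± 0.099, 0.035). Tnc (tenascin C) was higher in aged cells, 1.55-fold with CR (0.020) and 2.36-fold on the control diet (2.2e-05), and 1.61-fold lower in aged CR than in aged control (0.017).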

How the data were processed

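The deposited table holds RMA values per array and probe set, named so in the submitters' processing notes (no version), and no value column was left unused. The log2 base is inferred from the deposited values, which range over 1.19 to 12.8, and RMA compresses differences of dim genes. The platform annotation names a single gene for 28898 of the 45141 probe sets, 68 of them collagens. A single limma 3.58.1 model (R 4.3.3) of all 104 arrays held a day mean, cosine and sine of 24 h period per arm. P-values were adjusted by Benjamini-Hochberg across the 11853 genes tested, at 5%. Arrays have no read depth, and their number limits the precision.

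The members, companion and marker lists were chosen with earlier results of these data known. By the rule for named genes, values are given for collagens called and for the main type I, III, IV, V, VI, XV and XVIII chains, and for up to 4 called companions per list and comparison, by smallest p. Loxl1, Serpinh1, Lamc1 and Lamb1 in some arms and Arntl lie outside it and were chosen after their values were seen. The pairs compared array by array were chains of the same type or of neighbouring genes, and 3 chains with a marker mean, listed with the data in view. The alternatives were other filters on dim probe sets, the mean of a gene's probe sets, omission of 20 h, weighting of arrays, a further quantile normalization, covariates (5 marker means or the first component of the residuals), time as 6 levels, a replicate block, a fit of only the arms concerned, and omission of each array in groups of up to 5. A muscle stem cell mean as a covariate was added after seeing the data.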

Additional observations from a re-analysis of the deposited data

Results flagged for a closer look

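An array far from the rest of its group was looked for with Dixon's test at 95% in 10 measures (the mean of each collagen class, Col1a1, Col3a1, Col4a1, Col5a1, Col5a3, Col6a1 and Col15a1), over 230 sets of 4 to 6 arrays. Chance marks about 1 in 20 such sets, and 9 were marked (3.91%). Col1a1 accounted for 4, each a high array: 10.85 in adult CR at 8 h (others 9.27 to 9.70), 9.70 in adult control at 0 h (8.34 to 8.53), 10.25 in adult control at 4 h (9.08 to 9.40) and 9.48 in aged CR at 0 h (8.77 to 8.95). The other 5 were low arrays. Col3a1 read 9.20 in adult CR at 4 h (others 9.80 to 10.00) and 9.53 in aged CR at 8 h (9.86 to 9.89), Col4a1 9.95 in aged CR at 12 h (10.17 to 10.22), Col6a1 9.89 in aged control at 8 h (10.26 to 10.33), and Col15a1 8.40 in adult control at 0 h (9.82 to 9.92). None was found for Col5a1, Col5a3 or the class means.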

How the results depend on the processing

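No call changed direction. Of 25 rhythm calls 16 were kept under every alternative and omission run, among them all 4 of Col5a1, all 4 of Col5a3 and both of Col3a1. None of the 8 level calls was. Counts beyond 1.5 times the reported ones were as follows. Collagens rhythmic in aged CR were 5 without the 20 h arrays (reported 8), in adult CR 13 with time as 6 levels (8) and in aged control 8 with time as 6 levels (5). Level differences for age with CR (2) were 1 without 20 h, 0 with the Schwann cell covariate and 1 with the pericyte covariate. For age on the control diet (1) they were 0 without 20 h, with the Schwann cell, pericyte or muscle stem cell covariate and in a fit of only those arms, and 2 with time as 6 levels. For CR in aged cells (3) they were 1 without a filter, 0 with the Schwann cell covariate and 1 in a fit of only those arms. For CR in adult cells (2) they were 1 with the mean of probe sets, without 20 h, with the fibroadipogenic progenitor covariate and in a fit of only those arms. Rhythm differences for CR in aged cells (0) were 1 with the mean of probe sets. The causes were not tested.

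Leaving out 92 arrays in turn gave 7 to 10 rhythmic collagens in aged CR, 7 to 9 in adult CR, 4 to 7 in aged control and 3 to 5 in adult control, and 2 to 3, 1 to 2, 0 to 4 and 1 to 2 level calls for age with CR, age on the control diet, CR in aged and CR in adult cells. The 0 came without any of 4 aged control arrays (replicate 1 at 0, 4 or 20 h, or replicate 2 at 16 h). The adult control rhythm of Col4a1 was lost without replicate 4 at 0 h or replicate 1 or 4 at 12 h, and under 3 alternatives (adjusted p up to 0.15). The calls of Col25a1 in aged CR, Col6a2 in aged control, and Col10a1 and Col8a2 in adult CR were lost in 9, 8, 3 and 1 omissions. Without the 20 h arrays the aged CR rhythms of Col4a1 (adjusted p 0.10) and Col5a2 (0.078) were lost. Col8a2 was lost with the progenitor or tenocyte covariate in adult CR (0.074 and 0.077) and in adult control (0.064 and 0.077). The replicate block, with arrays of the same age, time and number as a random block, changed none of 46 results, with 8, 8, 5 and 4 rhythmic collagens and 2, 1, 3 and 2 level calls. Arrays of the same number in CR and control had a median correlation of 0.0355 (-0.232 to 0.29), with 10 of 45 pairs over 0.1. These correlations cannot settle whether the numbers pair the arrays.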
